A study of Homo sapiens with 48 samples.

Results

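The 42 genes described here act in mitosis or in the passage from G2 into it. They were taken from a list of gene symbols, each matched to its Ensembl identifier in the deposited table of raw counts, and all 42 were found among its 48898 genes. All 42 passed the filter on low counts in each of the 3 experiments.

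A cell enters mitosis when CDK1, bound to cyclin B, becomes active, and it leaves when the anaphase promoting complex tags cyclin B and securin for destruction. Between these points the Aurora and Polo kinases, kinesins and kinetochore proteins build the spindle and attach chromosomes to it, and the spindle checkpoint holds anaphase until attachment is complete. Most of these genes are transcribed in a burst in G2 and mitosis by the B-MYB-MuvB and FOXM1 factors, and in arrested cells the DREAM complex and the p53 target p21 (CDKN1A) keep them low. DREAM and MuvB are recruited through a short promoter element, the cell cycle genes homology region (CHR), often beside CCAAT boxes that bind NF-Y. Low expression of these genes is a usual sign of senescence, in which cells leave the cycle for good.

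Messenger RNA was sequenced from 48 libraries in 16 groups of 3, from IMR-90, a line of human fetal lung fibroblasts, and SK-MEL-103, a human melanoma line. In each line cells were transfected with a control siRNA (siCtrl), siMFN1, siMFN2, both (siMFN1+2) or siMAVS, and 1 day later were given doxorubicin, which damages DNA through topoisomerase II, at 200 nM for 48 h. RNA was taken on day 7, and proliferating cells with siCtrl and no doxorubicin formed the sixth group. MFN1 and MFN2 fuse outer mitochondrial membranes, and MAVS is an antiviral signalling adaptor on that membrane. In a separate IMR-90 experiment, cells 7 days from the start of the same doxorubicin treatment received MFI8 at 20 µM, BI at 10 µM or DMSO for 48 h, and RNA was taken on day 9, with DMSO-treated proliferating cells as the fourth group. By the labels, MFI8 is a mitofusin inhibitor and BI a mitofusin activator, and no other name is given for either. Nothing says that the 3 libraries of a group came from separate cultures, so p-values measure the spread between these libraries, which may be technical.

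Libraries held 15206115 to 79204217 counts, and depth followed the number in the library's title: those numbered 1 had 53390716 to 79204217, those numbered 2 had 30176556 to 50828283, and those numbered 3 had 15206115 to 31127306. Libraries are named 1, 2 and 3 by this number. In the siMFN2 group of SK-MEL-103 the unnumbered library stands as library 1. In all 10 of 10 checks every library given an siRNA had less of the silenced mRNA than every doxorubicin siCtrl library, with group means at 10.9% to 42.6% of the control. Levels are given as CPM, edgeR's counts scaled to a common library size by TMM. For markers of cell types the plain library size was used instead. All 10 fibroblast markers averaged at least 1 CPM in IMR-90, while 6 of the 10 (FAP, COL3A1, PDGFRA, COL1A2, THY1 and DCN) were below 1 in every SK-MEL-103 library. Of 10 melanocyte markers 4 reached that mean in SK-MEL-103, where the defining markers MLANA, TYRP1, TYR and PMEL were below 1 in every library. Of 12 markers of epithelial, endothelial and blood cells, VWF, KRT8 and KRT18 averaged at least 1 CPM in each of the 3 experiments, and the 12 summed to 49.4 to 338.7 CPM over the libraries. EPCAM, KDR, LST1, CD3E, CDH5 and TYROBP were below 1 in every library. In the IMR-90 siRNA experiment library 3 of all groups but siMAVS carries a library number of 0089 to 0093, apart from 0019 to 0035 for the others.

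Promoter sequences of 36 of the 42 genes were matched in RefSeq (GRCh38.p14), as 300-base windows from 250 bases before to 50 after the transcription start. TPX2, FOXM1, BIRC5, AURKA, TTK and UBE2C had no entry. The letters searched, on both strands, were TTTGAA and TTTAAA, the common forms of the CHR, and CCAAT. The first form was in 27 of the 36 promoters (75.0%), against 18.2% of all 27305 genes with such a window. The other form was in 14 (38.9%), against 14.5%, and CCAAT in 29 (80.6%), against 39.7%. At least 1 form of the CHR stood with a CCAAT in 25 of the 36 (69.4%), against 11.2% of all genes. These are matches of letters, not measured binding. The 7 sequences printed next are the 130 bases before the start on the + strand. They show both elements in genes of different roles, from CCNB1 and CCNB2 to ECT2. ECT2 kept a larger share of its level after doxorubicin than all but 1 of the others. The 7 were chosen after the sequences were seen, and the order and spacing of the elements differ among them. CCNA2, NEK2, BUB1 and AURKB had neither form of the CHR in their windows. Capitals mark both forms of the CHR, and the CCAAT box in either orientation.
CCNB1, chr5:69167020-69167149: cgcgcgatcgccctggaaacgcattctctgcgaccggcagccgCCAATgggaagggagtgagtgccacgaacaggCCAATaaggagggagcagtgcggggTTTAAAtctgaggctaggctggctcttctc
CCNB2, chr15:59105016-59105145: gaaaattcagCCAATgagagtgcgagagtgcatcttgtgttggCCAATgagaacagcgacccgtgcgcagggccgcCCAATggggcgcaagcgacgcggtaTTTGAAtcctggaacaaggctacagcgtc
PLK1, chr16:23678759-23678888: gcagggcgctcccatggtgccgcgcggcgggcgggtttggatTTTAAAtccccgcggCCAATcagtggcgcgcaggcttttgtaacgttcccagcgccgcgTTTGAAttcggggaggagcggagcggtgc
CDC20, chr1:43358851-43358980: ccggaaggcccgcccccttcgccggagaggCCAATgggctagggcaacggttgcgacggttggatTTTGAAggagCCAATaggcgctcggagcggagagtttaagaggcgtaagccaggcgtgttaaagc
KIF20A, chr5:138178982-138179111: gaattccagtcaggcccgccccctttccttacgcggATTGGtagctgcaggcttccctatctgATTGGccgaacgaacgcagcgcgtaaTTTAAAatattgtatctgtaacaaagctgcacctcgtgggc
KIF23, chr15:69414219-69414348: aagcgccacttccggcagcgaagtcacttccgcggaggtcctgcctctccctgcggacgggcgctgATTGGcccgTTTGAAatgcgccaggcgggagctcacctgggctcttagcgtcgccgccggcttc
ECT2, chr3:172750596-172750725: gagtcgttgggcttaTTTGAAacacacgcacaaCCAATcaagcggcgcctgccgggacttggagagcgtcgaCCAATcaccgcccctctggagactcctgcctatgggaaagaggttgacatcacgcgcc

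All 42 genes fell with doxorubicin in both lines and in the IMR-90 DMSO experiment. In proliferating IMR-90 the 42 together summed to 6597, 5684 and 5708 CPM in libraries 1, 2 and 3, and in doxorubicin siCtrl cells to 312, 416 and 529. The mean after doxorubicin was 6.99% ± 1.81 (SD, n = 3) of the proliferating mean. In SK-MEL-103 the sum was 6372, 4362 and 4050 CPM in proliferating cells and 135, 122 and 145 after doxorubicin, or 2.72% ± 0.236. In the DMSO experiment, 2 days later, it was 5821, 6572 and 6925 against 440.3, 1073 and 636, or 11.1% ± 5.03. No doxorubicin library came near a proliferating one, and DMSO library 2 stood above its 2 partners. In bulk RNA fewer cycling cells and less RNA per cell cannot be told apart.

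**Figure D1:**
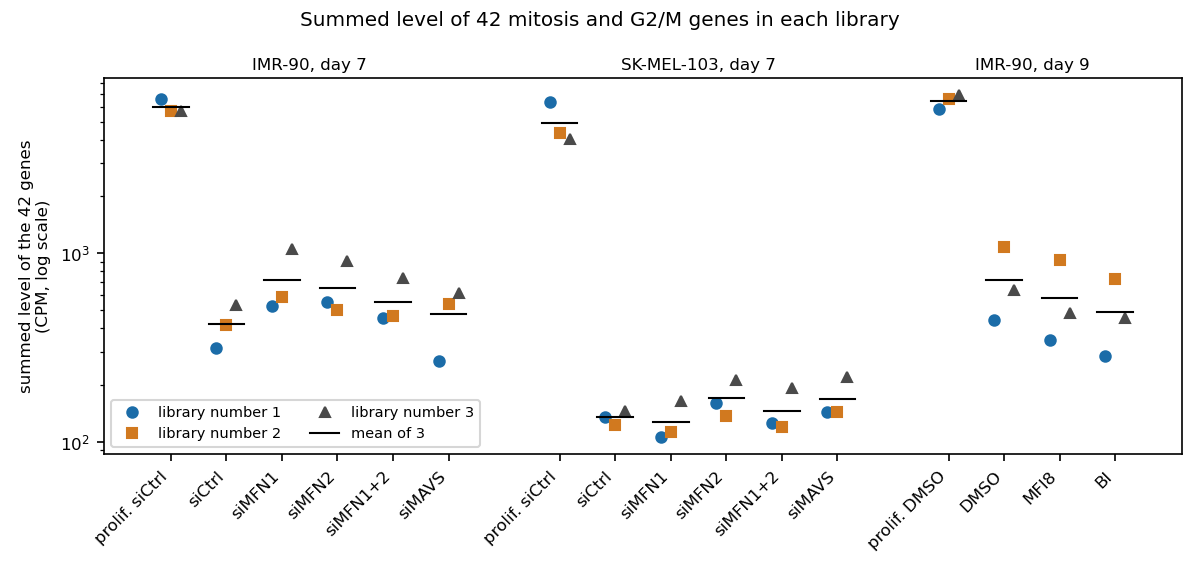
Summed level of the 42 genes in each of the 48 libraries (CPM, log scale), by group, with points for library numbers 1, 2 and 3 and a bar for the mean of 3. Proliferating libraries lie between 4050 and 6925, and every library given doxorubicin lies at or below 1073, with the SK-MEL-103 ones at 105.8 to 219.8.

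The test of doxorubicin against proliferating cells was edgeR's quasi-likelihood test, with a gene called at a Benjamini-Hochberg adjusted p (padj) below 0.05 over all genes tested. All 42 were called lower in IMR-90, where 24.4% of 19077 genes were. All 42 were called lower in SK-MEL-103, where 30.6% of 17945 genes were, and all 42 in the DMSO experiment, where 27.1% of 19056 were. The median log2 fold change of the 42 was -4.03 in IMR-90 (all genes 0.09), -5.93 in SK-MEL-103 (all genes 0.03) and -3.26 in the DMSO experiment (all genes 0.10). In each of the 3 comparisons every doxorubicin library was below every proliferating library for all 42 genes, as it was for 26.3%, 31.1% and 30.7% of all genes tested.

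The general marker and regulator of these genes fell further in the melanoma line than in IMR-90. MKI67, which encodes the Ki-67 protein that coats mitotic chromosomes (ENSG00000148773, chromosome 10, GRCh38 128096659 to 128126385, - strand), stood at 491, 463 and 465 CPM in proliferating IMR-90 and at 10.6, 19.3 and 35.5 after doxorubicin. Its log2 fold change was -4.45 (SE 0.66, padj = 6.3e-05). In SK-MEL-103 MKI67 went from 372, 245 and 223 CPM to 0.171, 0.209 and 1.05, the last group resting on 12, 10 and 32 counts. That is the lowest residual level of any of the 42, 0.171% of proliferating cells, with a log2 fold change of -9.52 (SE 1.06, padj = 7.66e-07). In the DMSO experiment MKI67 stood at 429, 482 and 612 CPM against 28.6, 82.7 and 45.6. FOXM1, the transcription factor that drives many of the others (ENSG00000111206, chromosome 12, 2857681 to 2877155, - strand), was at 271, 249 and 290.1 CPM in proliferating IMR-90 and 8.89, 11.1 and 18.8 after doxorubicin (log2 fold change -4.40, SE 0.56, padj = 1.66e-05). In SK-MEL-103 it fell from 375, 335 and 321 CPM to 2.46, 2.13 and 4.71 (log2 fold change -6.86, SE 0.61). Both genes were highest in library 3 of the doxorubicin groups at day 7, in both lines.

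The 6 genes of CDK1 activation fell by a median of 3.93 on the log2 scale in IMR-90, 5.65 in SK-MEL-103 and 3.09 in the DMSO experiment. CDK1, the kinase that starts mitosis (ENSG00000170312, chromosome 10, 60778331 to 60794852, + strand), stood at 102, 84.4 and 81.1 CPM in proliferating IMR-90 and 4.91, 4.498 and 5.64 after doxorubicin. In SK-MEL-103 it went from 176, 170.4 and 112 CPM to 0.500, 0.606 and 1.45, so a residual 5.62% of the proliferating level in the fibroblasts and 0.557% in the melanoma cells. CCNB1, its cyclin B1 partner (ENSG00000134057, chromosome 5, 69167010 to 69178245, + strand), kept more. CCNB1 was at 284, 201 and 231 CPM in proliferating IMR-90 and 14.4, 18.6 and 24.7 after doxorubicin (8.06% residual). In SK-MEL-103 it was at 269, 191 and 182 CPM and then at 10.9, 8.36 and 10.5 (4.65% residual). The log2 fold changes in SK-MEL-103 were -7.66 (SE 0.62, padj = 1.52e-08) for CDK1 and -4.43 (SE 0.23, padj = 9.14e-11) for CCNB1, the largest and the smallest fall of this group in that line. In IMR-90 CDK1 was again at one end (-4.16) and CDC25C, the phosphatase that activates CDK1, at the other (-3.63).

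Among the mitotic kinases, PLK1, the Polo kinase that promotes entry and spindle assembly, was at 226, 169.7 and 213 CPM in proliferating IMR-90 and 7.64, 9.54 and 15.1 after doxorubicin. In SK-MEL-103 it went from 152, 106 and 92.1 CPM to 1.54, 2.22 and 1.91, a log2 fold change of -5.97 (SE 0.32) against -4.25 (SE 0.54) in IMR-90. AURKA, the kinase of the spindle poles, fell less than PLK1 and NEK2 in both lines: 150.3, 121 and 129.6 CPM became 15.53, 15.3 and 31.5 in IMR-90, which is 15.6% residual and a log2 fold change of -2.69 (SE 0.33). NEK2, a centrosome kinase, reached 9, 2 and 0 counts in the 3 doxorubicin siCtrl libraries of SK-MEL-103, from 30.6, 16.5 and 16.4 CPM in proliferating cells. Its fold change there (-8.13) rests on these 11 counts.

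The spindle checkpoint genes BUB1, BUB1B, TTK and MAD2L1 fell together, by a median of 4.19 on the log2 scale in IMR-90 and 5.72 in SK-MEL-103. BUB1B, which encodes the checkpoint protein BubR1, was at 102, 93.6 and 90.5 CPM in proliferating IMR-90 and 4.10, 6.38 and 5.02 after doxorubicin. Its log2 fold change was -4.21 (SE 0.40, padj = 9.78e-07). BUB1 had the largest fall of the 4 in both lines (-4.39 and -6.47) and MAD2L1 the smallest (-3.59 and -4.68).

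The chromosomal passenger complex, which corrects faulty attachments and acts in cytokinesis, had a median log2 fold change of -4.10 in IMR-90 and -7.70 in the melanoma line. AURKB, its kinase, was at 75.7, 61.4 and 72.4 CPM in proliferating IMR-90 and 2.03, 2.34 and 3.85 after doxorubicin. In SK-MEL-103 it was at 95.3, 69.9 and 58.5 CPM and then at 0.400, 0.251 and 0.428. BIRC5, which encodes survivin and is also known as an inhibitor of apoptosis, went from 201, 153 and 184 CPM to 7.15, 10.6 and 14.1 in IMR-90. In SK-MEL-103 it went from 222, 168 and 162 CPM to 0.371, 0.209 and 1.05, a log2 fold change of -8.61 (SE 0.78, padj = 6.88e-08) against -4.10 (SE 0.50) in IMR-90.

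The 6 centromere and kinetochore genes fell by a median of 4.19 in IMR-90 and 6.36 in SK-MEL-103. NDC80, the main microtubule binder of the kinetochore, was at 59.0, 53.0 and 48.4 CPM in proliferating IMR-90 and at 3.40, 3.74 and 6.15 after doxorubicin. In SK-MEL-103 it was at 59.6, 32.3 and 29.6 CPM and then at 0.842, 0.481 and 0.626. Its partner NUF2 had the largest fall of this role in IMR-90 (log2 fold change -4.73, SE 0.40), and SPC25, of the same NDC80 complex, the largest in SK-MEL-103 (-8.25), where it was down to 0.0714, 0.0418 and 0.0988 CPM. CENPE, the kinetochore motor, fell least in both lines (-3.14 and -4.23).

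The 7 kinesins fell by a median of 3.99 in IMR-90 and 6.91 in SK-MEL-103. KIF11, the motor that pushes spindle poles apart, was at 171, 166 and 148 CPM in proliferating IMR-90 and at 6.66, 9.52 and 9.60 after doxorubicin. KIF23, of the centralspindlin complex of cytokinesis, fell least of the 7 in both lines. Its levels were 199, 195 and 163 CPM before and 20.8, 25.1 and 25.3 after doxorubicin in IMR-90, a residual of 12.8%. KIF2C, a kinesin that takes microtubules apart, had the largest fall in SK-MEL-103 (log2 fold change -7.91).

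Of the spindle assembly proteins, TPX2, which activates AURKA at spindle microtubules, had 364, 308 and 315 CPM in proliferating IMR-90 and 19.9, 29.6 and 30.6 after doxorubicin. In SK-MEL-103 TPX2 had 543, 352 and 331 CPM and then 19.5, 16.8 and 21.1, so its residual was 8.11% in IMR-90 and 4.69% in SK-MEL-103. ASPM, a spindle pole protein, fell furthest of this role in both lines (-4.41 and -8.17).

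The 3 genes that act at the exit from mitosis differed among themselves. CDC20, the activator of the anaphase promoting complex (ENSG00000117399, chromosome 1, 43358955 to 43363203, + strand), had the lowest residual level of the 42 in IMR-90, at 3.36%. It was at 373, 217 and 354 CPM in proliferating cells and 6.52, 9.48 and 15.8 after doxorubicin, a log2 fold change of -4.91 (SE 0.57, padj = 7.14e-06), and at -7.14 (SE 0.38) in SK-MEL-103. UBE2C, the ubiquitin-conjugating enzyme of the same complex (ENSG00000175063, chromosome 20, 45812576 to 45816957, + strand), was at 111, 88.9 and 93.0 CPM and then at 4.27, 4.54 and 6.96 in IMR-90 (5.38%). In SK-MEL-103 it was at 197, 139 and 141 CPM and then at 12.2, 13.4 and 10.9 (7.67%). UBE2C was the 1 gene of the 42 with a higher residual level in the melanoma line than in the fibroblasts, and its fall there (-3.70, SE 0.17) was the smallest but 2 of the 42.

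ECT2, the guanine nucleotide exchange factor that starts the cleavage furrow (ENSG00000114346, chromosome 3, 172750682 to 172821474, + strand), kept the most of its level in both lines among the 40 genes other than PRC1 and NUSAP1, which are given apart. It was at 189.8, 174 and 149 CPM in proliferating IMR-90 and at 32.7, 34.1 and 33.4 after doxorubicin, or 19.6%. In SK-MEL-103 it went from 193, 158 and 116 CPM to 21.0, 20.0 and 18.5, or 12.8%. The fall was called in both lines (log2 fold change -2.36, SE 0.11, padj = 7.09e-09 and -2.97, SE 0.14, padj = 3.06e-11). In the DMSO experiment ECT2 was again the highest, at 22.3% (175, 183 and 188 CPM against 39.7, 43.2 and 38.5). ANLN, the cytokinesis scaffold anillin, fell further, from 750.1, 732 and 590.2 CPM to 32.7, 55.1 and 56.0 in IMR-90.

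PRC1 and NUSAP1, both binders of spindle microtubules, had few counts in every library. They held 760 and 552 counts over all 48 libraries, against 7848 to 285486 for each of the other 40. Per kilobase of exon in proliferating IMR-90 their levels were 0.296 and 0.110 CPM, against 4.84 to 154 for the other 40. In GENCODE 29, 57.6% of the exonic bases of PRC1 and 62.2% of those of NUSAP1 lie in exons of another gene on the same strand (AC068831.7 and AC087721.2), and at most 10.2% do so for the other 40. How reads shared by 2 genes were counted is not given in the sources used here, and its part in these levels was not tested. NUSAP1, at 0.433, 0.316 and 0.201 CPM in proliferating IMR-90 and 0.101, 0.167 and 0.147 after doxorubicin, had the smallest fall of the 42 in both lines (-1.37 and -1.63). Its call in IMR-90 siCtrl (padj = 0.0086) was not made by DESeq2 (padj = 0.0968) and was lost without siCtrl library 1 (padj = 0.0662) or proliferating library 1 (padj = 0.124).

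**Figure D2:**
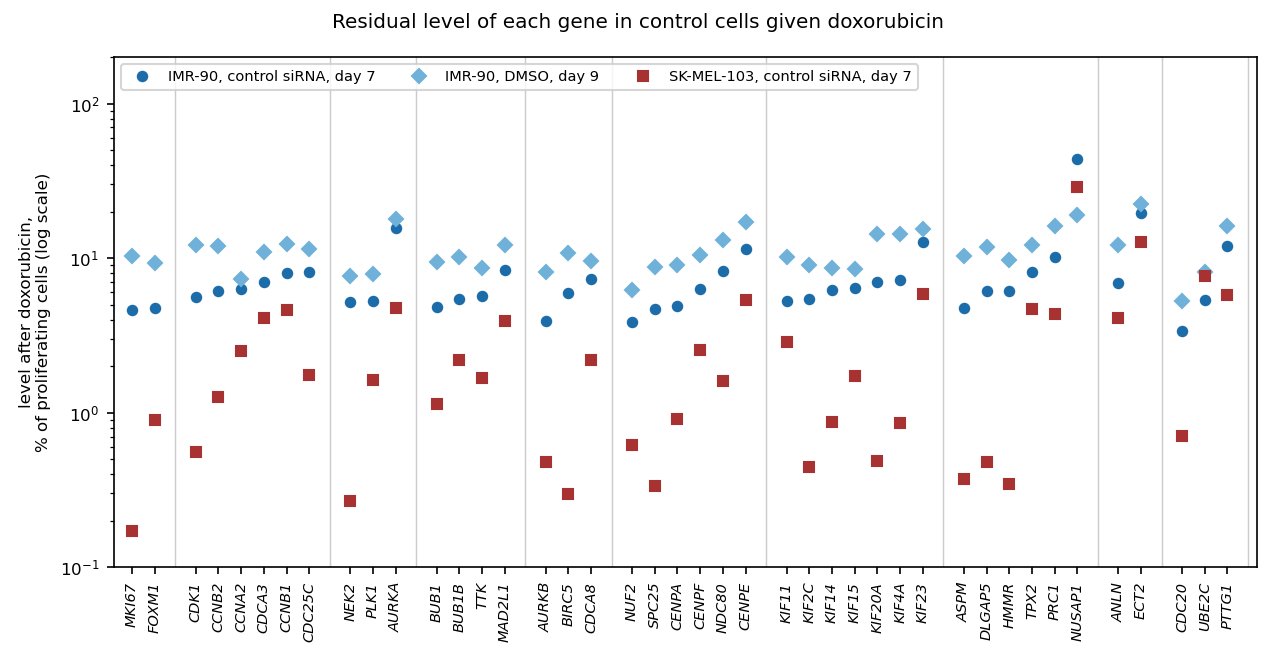
Level of each of the 42 genes after doxorubicin as a percentage of its mean in proliferating cells (log scale), for control cells of the IMR-90 siRNA, SK-MEL-103 siRNA and IMR-90 DMSO experiments. SK-MEL-103 values run from 0.171% (MKI67) to 28.7% (NUSAP1) and lie below those of IMR-90 siCtrl for every gene but UBE2C.

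The median residual level was 6.19% in IMR-90 siCtrl, 1.65% in SK-MEL-103 siCtrl and 10.4% in IMR-90 DMSO cells. Residual levels were under 5% for 9, 36 and 0 of the 42 genes and over 10% for 7, 2 and 25. The order of the genes was similar between the lines as a description across 42 genes, which share libraries and are not independent (Pearson r 0.75 and Spearman rho 0.71 of the log2 percentages). Between the siCtrl and DMSO experiments of IMR-90 these were 0.84 and 0.80. The siCtrl and DMSO cells differ in day, transfection and solvent, and their residual levels were not tested against each other.

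The fall was larger in SK-MEL-103 than in IMR-90 for most of the genes. In a fit of all 36 siRNA libraries, with the difference between the lines' doxorubicin effects as the tested term, 29 of the 42 were called, all with the larger fall in SK-MEL-103, and 9.16% of 20892 genes were called in that direction. MKI67 differed by -4.93 on the log2 scale (SE 1.30, padj = 0.00667), CDK1 by -3.37 (SE 0.75, padj = 0.00163), BIRC5 by -4.39 (SE 0.99, padj = 0.00183) and FOXM1 by -2.34 (SE 0.79, padj = 0.0321). HMMR, a spindle protein named after its values were seen, had the smallest padj of these (a difference of -4.02, SE 0.63, padj = 3.76e-05): it went from 66.5, 52.3 and 52.5 CPM to 0.214, 0.146 and 0.230 in SK-MEL-103, and from 111, 78.7 and 86.3 to 3.84, 5.58 and 7.55 in IMR-90. The 13 not called included CCNB1 (-0.69, padj = 0.246), PLK1 (-1.61, padj = 0.053), NUSAP1 (-0.18) and UBE2C (0.64, padj = 0.350). ECT2 differed by -0.52 (padj = 0.0292). The call for FOXM1 was lost in 8 fits that left out 1 library (padj up to 0.0862): doxorubicin siCtrl library 3 or any proliferating library of IMR-90, or library 1 or 2 of either SK-MEL-103 group. The lines were separate experiments, so line and experiment cannot be told apart.

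**Figure D3:**
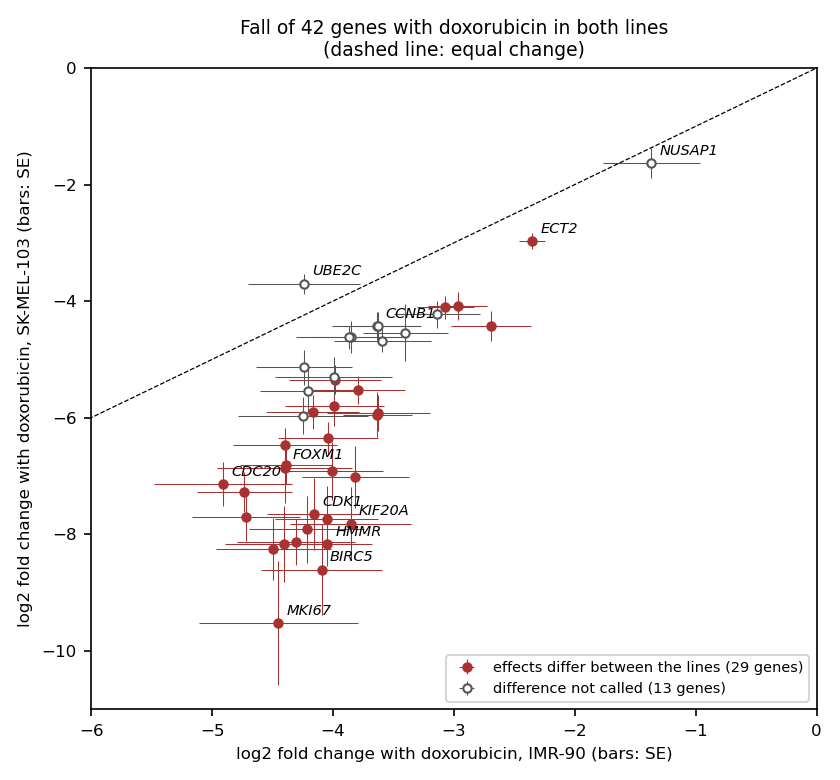
Log2 fold change with doxorubicin of each of the 42 genes in IMR-90 (horizontal) and SK-MEL-103 (vertical), with bars for SE and a dashed line for equal change. The 29 genes with a called difference between the lines lie under the line, and UBE2C lies above it.

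The other genes of the mitotic programme fell in the same comparisons. Counts given next are of genes called lower, as were 24.4% of all genes tested in IMR-90 and 30.6% in SK-MEL-103. Of 29 other kinetochore and centromere genes, 29 fell in IMR-90 and 28 in SK-MEL-103, with medians of -2.92 and -3.32. All 17 condensin and cohesin genes fell in IMR-90 and 15 of 17 in SK-MEL-103, with the condensin subunits NCAPH (-4.99) and NCAPG (-3.97) lowest in IMR-90. All 21 other spindle and cytokinesis genes fell in both lines. Of 16 G2/M regulators, 16 fell in IMR-90 and 15 in SK-MEL-103. The anaphase promoting complex subunits, which are needed outside mitosis too, moved less: 9 of 15 fell in each line, with medians of -0.44 and -0.31. All 28 S phase genes fell in both lines, with medians of -3.45 and -3.47.

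Most genes of the p53 arm moved the other way. Of 13 p53-induced genes that hold G1 or G2, 10 rose and 1 fell in IMR-90, and of 12 in SK-MEL-103 8 rose and 2 fell, where 27.4% and 29.8% of all genes rose. CDKN1A, which encodes p21, was at 292, 289.9 and 369.7 CPM in proliferating IMR-90 and 1873, 1943 and 2165 after doxorubicin (log2 fold change 2.65). In SK-MEL-103 it went from 570.1, 518 and 598 CPM to 2137, 2317 and 2055 (1.95). The fallen gene in IMR-90 was GTSE1 (-3.99), which is itself a G2 gene and counts under the G2/M regulators too. In SK-MEL-103 the fallen genes were GTSE1 (-8.28) and CCNG1 (-0.33). In the DMSO experiment 10 of 13 rose, where 28.8% of all genes did, and GTSE1 (-3.25) and SFN (-1.35) fell.

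In doxorubicin-treated IMR-90 the siMFN1 libraries held more of most of the 42 genes than the siCtrl libraries of the same number. None of them passed edgeR's test without a term for the library number. Most did with the number as a block in a fit of these 2 groups, but few did with that block over all groups. The summed level was 524, 587 and 1047 CPM in siMFN1 libraries 1, 2 and 3, against 312, 416 and 529 in siCtrl. Each siMFN1 library was above the siCtrl library of its number, and siMFN1 library 1 lay just under siCtrl library 3, so the groups overlapped. As a share of the proliferating mean the sum was 11.99% ± 4.76 (SD, n = 3) against 6.99% ± 1.81. The residual level of the median gene was 11.4%, and 34 of the 42 genes were over 10%.

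Without regard to the library number, 0 of the 42 were called in siMFN1 against siCtrl by edgeR, where 302 of 19077 genes (0.592% higher and 0.991% lower) were. At an unadjusted p below 0.05 there were 17, and DESeq2 called 1, CDK1 (padj = 0.0249). Counts at an unadjusted p and counts of signs, here and in later comparisons, are given without the share of all genes. The 42 share libraries and are not independent, so these counts are descriptions only. Over the 42 the median log2 fold change was 0.82, and 41 of the 42 were positive. Without siMFN1 library 3 this median was 0.43, and without any other single library it was 0.64 to 1.01. With a term that sets library numbers 0089 to 0093 apart, FOXM1 was called (padj = 0.0384). Libraries of the same number deviated together in this comparison (correlations of 0.417 to 0.671 over the 3 numbers), and with the number as a block in a fit of these 2 groups 33 of 40 genes tested were called higher and 0 lower. In that fit 9.25% of all genes were called higher and 8.68% lower. With the block over all 6 groups of the experiment 3 were called, FOXM1 (1.29, padj = 0.0234), KIF11 (1.01, padj = 0.0435) and AURKB (1.10, padj = 0.0496), where 1.65% of all genes were called higher and 2.14% lower. The fit of 2 groups estimates the spread from 6 libraries only.

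MKI67 was at 33.1, 36.8 and 105 CPM in siMFN1 libraries, above the 10.6, 19.3 and 35.5 of siCtrl in each number but overlapping as groups. Its log2 fold change was 1.42 (SE 0.59, padj = 0.250), and 1.39 (SE 0.14, padj = 0.000276) in the blocked fit of the 2 groups. CDK1 was at 9.20, 9.77 and 16.2 CPM against 4.91, 4.498 and 5.64, with no overlap of the groups (log2 fold change 1.21, SE 0.36, padj = 0.109, and padj = 0.00108 blocked). FOXM1 was at 20.0, 23.2 and 56.4 CPM against 8.89, 11.1 and 18.8, again without overlap (1.36, SE 0.51, padj = 0.198, and padj = 0.00027 blocked). CCNB1 was at 20.2, 25.4 and 41.2 CPM against 14.4, 18.6 and 24.7, with the groups overlapping and a smaller difference (0.59, SE 0.34, padj = 0.429, and padj = 0.0088 blocked). In 17 of the 42 every siMFN1 library was above every siCtrl library, as in 9.2% of all genes.

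ECT2 was the gene that did not follow. It stood at 28.6, 27.3 and 30.6 CPM in siMFN1 libraries and 32.7, 34.1 and 33.4 in siCtrl, every siMFN1 library below every siCtrl one (log2 fold change -0.21, SE 0.10, padj = 0.330). AURKA, CDC25C, KIF14, KIF15, PTTG1 and UBE2C were the other tested genes not called in the blocked fit of the 2 groups. The genes called in it ran from CENPE (0.56) to MKI67 (1.39).

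With siMFN2 in IMR-90 most of the 42 genes were again above siCtrl within each library number. The summed level was 549, 497 and 911 CPM, or 10.9% ± 3.76 of proliferating cells, and the median residual level was 9.94%. By edgeR without a block 0 of the 42 were called, where 0.11% of all genes were called higher and 0.168% lower. Of the 42, 7 had an unadjusted p below 0.05, and DESeq2 called 0. The median log2 fold change was 0.67, with 41 positive, and the median was 0.33 without siMFN2 library 3. In the blocked fit of the 2 groups (correlations by number of 0.466 to 0.722) 26 of 40 were called higher, from PTTG1 (0.44) to MKI67 (1.00), where 7.56% of all genes were called higher. With the block over all groups 0 were.

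BIRC5 and FOXM1 had the largest differences with siMFN2. BIRC5 was at 14.6, 15.6 and 34.6 CPM against 7.15, 10.6 and 14.1 in siCtrl, every siMFN2 library above every siCtrl one (log2 fold change 1.03, SE 0.46, padj = 0.345, and padj = 0.00367 blocked). FOXM1 was at 18.4, 17.6 and 45.2 CPM against 8.89, 11.1 and 18.8, overlapping as groups (1.07, SE 0.50, padj = 0.372, and padj = 0.00201 blocked). MKI67 was at 33.4, 25.4 and 69.1 CPM (0.98, padj = 0.500, and padj = 0.0103 blocked). CDK1 was at 9.40, 7.18 and 13.6 CPM (1.00, padj = 0.241, and padj = 0.00453 blocked), all above the siCtrl libraries. CCNB1, at 23.2, 21.5 and 34.8 CPM, differed by 0.46 (padj = 0.603, and padj = 0.0292 blocked). CDC25C (0.09) and NUSAP1 (-0.64) were lowest.

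With both siRNAs together 39 of the 42 genes had a positive log2 fold change in IMR-90, and 11 were called in the blocked fit. The summed level was 453, 465 and 734 CPM, or 9.18% ± 2.65 of proliferating cells, with a median residual level of 8.47%. By edgeR without a block 0 were called (0.64% of all genes higher, 0.933% lower), 0 had an unadjusted p below 0.05 and DESeq2 called 0. Their median log2 fold change was 0.34. It was 0.11 without siMFN1+2 library 3, 0.15 without siCtrl library 1 and 0.52 without siCtrl library 3. In the blocked fit of the 2 groups (correlations of 0.395 to 0.679) 11 of 40 were called higher, where 9.12% of all genes were: CENPF, CDC20, KIF4A, PLK1, ANLN, ASPM, BIRC5, KIF11, CDK1, FOXM1 and MKI67, from 0.42 to 0.90. With the block over all 6 groups 0 were called. MKI67 was at 27.1, 26.2 and 66.2 CPM (0.87, padj = 0.509, and padj = 0.00449 blocked). FOXM1 was at 16.3, 16.3 and 36.4 CPM, CDK1 at 8.04, 5.99 and 11.6, and CCNB1 at 17.4, 20.5 and 27.1. KIF15 (-0.31) and ECT2 (-0.12) were lowest.

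With siMAVS in IMR-90 the sum of the 42 genes lay on both sides of siCtrl, at 268, 537 and 617 CPM, library 1 below and libraries 2 and 3 above the siCtrl libraries of their numbers. The mean was 7.90% ± 3.05 of proliferating cells. By edgeR 0 were called (0.22% of all genes higher, 0.414% lower), 0 had an unadjusted p below 0.05 and DESeq2 called 0. The median log2 fold change was 0.13, and without single libraries it ran from -0.16 (siMAVS library 3 left out) to 0.48 (siMAVS library 1 left out), negative also without siCtrl library 1. MKI67 was at 9.67, 28.5 and 35.8 CPM (0.19, SE 0.58, padj = 0.920), FOXM1 at 9.07, 21.6 and 26.6 (0.58, SE 0.50), CDK1 at 3.40, 9.65 and 9.58 (0.59, SE 0.36) and CCNB1 at 11.0, 23.0 and 29.6 (0.14, SE 0.34). The 4 silenced groups were compared with the same 3 siCtrl libraries, so their values are not independent of each other.

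**Figure D4:**
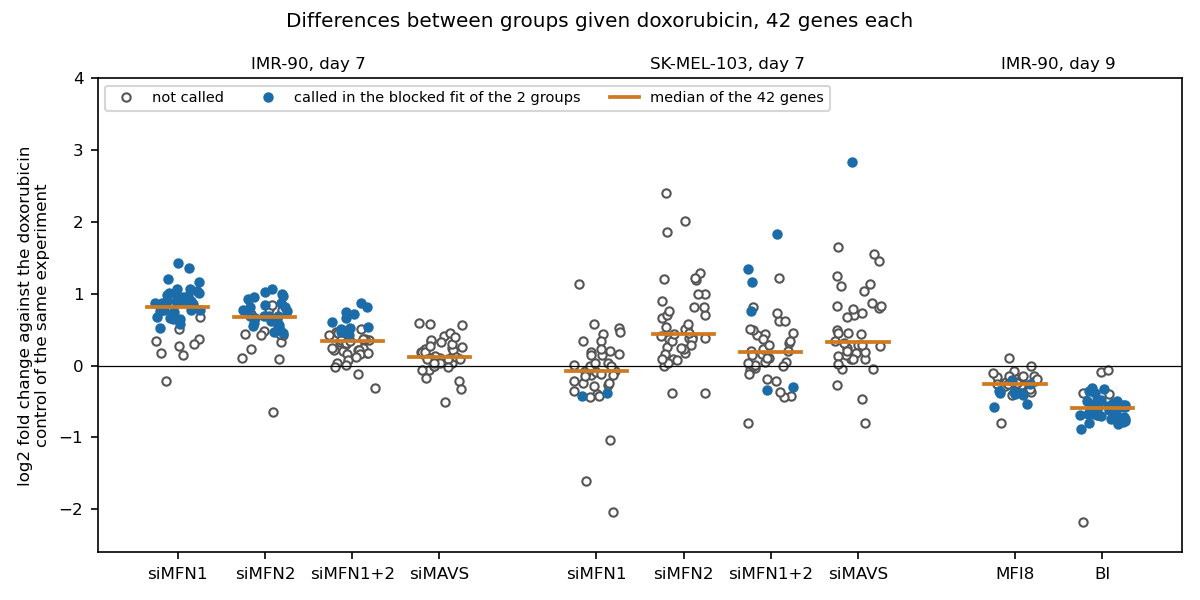
Log2 fold change of each of the 42 genes against the doxorubicin control of its experiment, unblocked, with an orange bar for the median. Filled points were called in the blocked fit of the 2 groups, which is shown where library numbers pair the samples. No gene was called in the unblocked fit.

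Within each doxorubicin group at day 7 most of the 42 genes stood highest in library 3, the shallowest. This held for 36 of the 42 in IMR-90 siCtrl, 42 in siMFN1, 41 in siMFN2, 41 in siMFN1+2 and 37 in siMAVS, where 29.3% to 39.3% of all genes were highest in library 3. In SK-MEL-103 it held for 28 in siCtrl, with 11 highest in library 1, and for 37 in siMFN1, 33 in siMFN2, 39 in siMFN1+2 and 38 in siMAVS, where 36.55% to 41.4% of all genes were. In the DMSO, MFI8 and BI groups given doxorubicin library 2 was highest for 42, 41 and 40 of the 42, where 41.3%, 41.9% and 41.1% of all genes were. Among proliferating siCtrl cells library 1, the deepest, was highest for 38 of the 42 in IMR-90 and 41 in SK-MEL-103. It was highest for 38.4% and 45.1% of all genes there. Proliferating DMSO libraries 1, 2 and 3 were highest for 1, 20 and 21 (35.4%, 35.1% and 29.5% of all genes). The part of depth, of the library numbers 0089 to 0093 or of whatever else the number in the title stands for in these levels was not tested. In IMR-90, against the siCtrl library of its own number, the siMFN1 library was higher in all 3 numbers for 37 of the 42 (25.3% of all genes), the siMFN2 library for 37 (25.6%), the siMFN1+2 library for 32 (26.6%) and the siMAVS library for 4 (14.9%). In SK-MEL-103 these counts were 0 with siMFN1 (25.4%), 13 with siMFN1+2 (21.0%) and 22 with siMAVS (14.6%). With siMFN1 9 were lower in all 3 numbers there (24.1%). The siMFN2 group of SK-MEL-103 had 2 numbers to compare, and 32 were higher in both (30.5%).

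**Figure D5:**
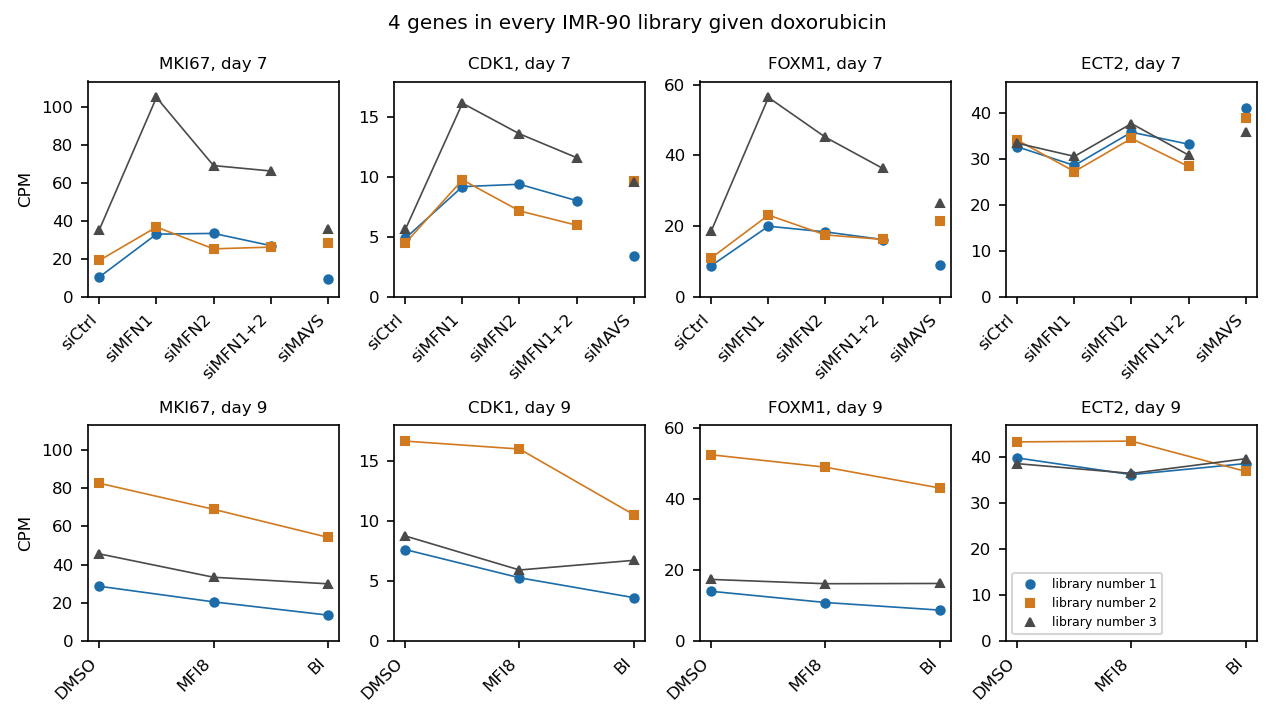
Level of MKI67, CDK1, FOXM1 and ECT2 (CPM) in every IMR-90 library given doxorubicin, on day 7 by siRNA (upper row) and on day 9 by compound (lower row), with lines joining libraries of the same number where the numbers pair the samples. Library 3 is highest for MKI67 and FOXM1 on day 7 and library 2 on day 9, while ECT2 keeps within 27.3 to 43.4 CPM.

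In SK-MEL-103 16 of the 42 genes had a positive log2 fold change with siMFN1. The sum of all 42 was 106, 113 and 164 CPM, against 135, 122 and 145, with libraries 1 and 2 below and library 3 above the siCtrl libraries. By edgeR 0 were called (0.0279% of all genes higher, 0.1% lower), NUSAP1 had an unadjusted p below 0.05 and DESeq2 called 0. Over the 42 the median log2 fold change was -0.07, and it ran from -0.45 without siMFN1 library 3 to 0.15 without siMFN1 library 1. MKI67 was at 0.222, 0.158 and 3.11 CPM against 0.171, 0.209 and 1.05, on 15, 6 and 77 counts (log2 fold change 1.14, SE 1.5, padj = 0.954). CDK1 was at 0.547, 0.525 and 2.42 CPM, CCNB1 at 8.65, 9.59 and 12.2 and FOXM1 at 1.92, 1.60 and 5.41, all 3 overlapping siCtrl. In the blocked fit of the 2 groups (correlations of 0.22 to 0.419) 2 of 35 tested were called, both lower: ANLN (-0.45) and PTTG1, securin (-0.38), where 9.96% of all genes were called lower. PTTG1 was at 4.29, 4.36 and 4.32 CPM against 5.80, 5.41 and 5.70, with no overlap.

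With siMFN2 in SK-MEL-103 the summed level was 161, 137 and 211 CPM. By edgeR 0 were called (0.00557% of all genes higher, 0.0613% lower), CDK1 and BIRC5 had an unadjusted p below 0.05 and DESeq2 called 0. The median log2 fold change was 0.44 (0.28 without siMFN2 library 3), and 39 of the 42 were positive. CDK1 was at 2.29, 1.27 and 5.44 CPM against 0.500, 0.606 and 1.45 (1.86, SE 0.68, padj = 1.00), so siMFN2 library 2 lay below siCtrl library 3. BIRC5 was at 1.52, 0.556 and 4.49 CPM against 0.371, 0.209 and 1.05 (2.01, SE 0.94), and MKI67 at 1.39, 0.245 and 5.597 (2.41, SE 1.28). CCNB1 was at 12.3, 11.5 and 15.6 CPM against 10.9, 8.36 and 10.5, all siMFN2 libraries above all siCtrl ones (0.40, SE 0.22). FOXM1 was at 4.45, 2.45 and 8.97 CPM. In 10 of the 42 the siMFN2 libraries were all above the siCtrl libraries, as in 5.56% of all genes. Only 2 numbers could be paired here (correlations of 0.398 and 0.422), too few to count the numbers as pairing. A blocked fit of the 2 groups without siMFN2 library 1 called MKI67, BIRC5, CDK1, CCNB1 and FOXM1 among others (padj = 4.81e-05 to 0.0353). MKI67 was low in siCtrl and could pass the filter of that fit through the siMFN2 libraries alone, so its call there cannot stand as support. Counts of that fit are given with the alternatives.

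With siMFN1+2 in SK-MEL-103 the summed level was 125, 119.9 and 192 CPM, and 0 were called by edgeR (0.0334% of all genes higher, 0.206% lower), with 0 at an unadjusted p below 0.05 and 0 by DESeq2. MKI67 was at 0.884, 0.572 and 4.05 CPM, above the siCtrl library of each number (log2 fold change 1.83, SE 1.38, padj = 1.00, and padj = 6.87e-05 blocked). CDK1 was at 1.38, 0.847 and 4.05 CPM (padj = 0.00153 blocked) and BIRC5 at 0.857, 0.412 and 3.66 (padj = 0.00114 blocked). With the block, in a fit of the 2 groups (correlations of 0.259 to 0.436) these and KIF14 (0.78) were called higher and ANLN (-0.36) and UBE2C (-0.33) lower, of 38 tested, where 4.03% and 4.46% of all genes were called. MKI67 and BIRC5 were low in siCtrl. Both could pass the filter of this fit through the silenced libraries alone, so their blocked calls cannot stand as support. CCNB1 was at 9.81, 9.11 and 13.9 CPM and FOXM1 at 2.501, 1.79 and 8.05, overlapping siCtrl.

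With siMAVS in SK-MEL-103 the summed level was 144, 143 and 219.8 CPM, and 0 were called by edgeR (0.0% of all genes higher, 0.1% lower), with CDK1 and MKI67 at an unadjusted p below 0.05 and 0 called by DESeq2. MKI67 was at 0.874, 1.31 and 7.83 CPM (log2 fold change 2.84, SE 1.26, padj = 1.00), and in the blocked fit of the 2 groups (correlations of 0.144 to 0.236) it was the 1 gene called higher among all 16550 tested (2.71, padj = 0.0379, 0.00604%). Low counts were filtered anew in each fit of 2 groups. MKI67 was near the floor in siCtrl and could pass that filter through the siMAVS libraries alone, so this call cannot stand as support. CDK1 was at 1.69, 1.24 and 4.51 CPM, CCNB1 at 9.89, 9.62 and 16.4 and FOXM1 at 3.86, 2.52 and 10.13. As in IMR-90, library 3 was highest, for 38 of the 42 genes. Differences between the lines in the effect of siMFN1, siMFN2, siMFN1+2 or siMAVS were called for 0 of the 42, with 7, 0, 1 and 0 at an unadjusted p below 0.05. Of all genes, the share with a higher and with a lower value in SK-MEL-103 was 0.11% and 0.0431% for siMFN1, 0.0431% and 0.0% for siMFN2, 0.115% and 0.0287% for siMFN1+2, and 0.0383% and 0.00479% for siMAVS.

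In the day 9 experiment BI went with lower levels of the 42 genes. The summed level was 440.3, 1073 and 636 CPM in DMSO and 283, 732 and 452 in BI libraries 1, 2 and 3, each BI library below the DMSO library of its number and the groups overlapping. The means were 11.1% ± 5.03 and 7.60% ± 3.53 of proliferating cells (SD, n = 3). By edgeR without a block 0 of the 42 and 0 of 19056 genes were called (0.0%), with PRC1 and KIF23 among the 42 at an unadjusted p below 0.05, and DESeq2 called 0. The median log2 fold change was -0.58, and 0 of the 42 were positive. This median was -0.097 without DMSO library 2, -0.26 without BI library 1, -0.91 without DMSO library 1 and -1.13 without BI library 2. In the blocked fit of the 2 groups (correlations of 0.653 to 0.88) 37 of 40 tested were called lower, from ASPM (-0.86) to PTTG1 (-0.30), where 2.4% of all genes were called lower. With the block over all 4 groups 0 were.

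MKI67 was at 13.5, 54.3 and 29.9 CPM with BI against 28.6, 82.7 and 45.6 in DMSO (log2 fold change -0.69, SE 0.56, padj = 1.00, and -0.77, SE 0.07, padj = 1.42e-09 blocked). CDK1 was at 3.59, 10.5 and 6.70 CPM against 7.59, 16.6 and 8.73 (padj = 2.1e-06 blocked). UBE2C was at 2.81, 7.49 and 3.48 CPM against 4.92, 12.9 and 7.64 (-0.88, SE 0.52, and padj = 5.2e-07 blocked). In each of these genes every BI library was below its DMSO partner, and the groups overlapped, with library 2 high in both. CCNB1, at 14.0, 36.6 and 19.8 CPM against 19.4, 50.7 and 27.6, differed by -0.47 (padj = 1.45e-06 blocked), and FOXM1, at 8.66, 43.2 and 16.2 against 14.0, 52.5 and 17.3, by -0.31 (padj = 0.00105 blocked). ECT2, at 38.5, 36.8 and 39.5 CPM against 39.7, 43.2 and 38.5, was not called in either fit, like CDC25C and KIF15.

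With MFI8 41 of the 42 genes had a negative log2 fold change. The summed level was 346, 916 and 483 CPM, again below DMSO in each number, or 9.03% ± 4.62 of proliferating cells. By edgeR 0 of the 42 and 0 of all genes were called (0.0%), 0 of the 42 had an unadjusted p below 0.05 and DESeq2 called 0. Their median log2 fold change was -0.26, and NUSAP1 was the 1 positive gene (0.10). The sign of the median turned without DMSO library 2 (0.17) or MFI8 library 1 (0.021), and it was -0.57 without DMSO library 1, -0.88 without MFI8 library 2 and -0.15 without MFI8 library 3. In the blocked fit of the 2 groups (correlations of 0.664 to 0.865) 11 of 41 were called lower, where 1.97% of all genes were: ANLN, KIF20A, DLGAP5, CDC20, PLK1, BUB1, BIRC5, CCNB1, MKI67, KIF23 and TPX2, from -0.55 to -0.23. KIF20A, a kinesin of cytokinesis, was at 7.30, 25.5 and 14.7 CPM against 9.42, 41.0 and 19.9 (-0.57, SE 0.61, and padj = 0.0132 blocked). MKI67 was at 20.4, 69.0 and 33.3 CPM (-0.35, SE 0.55, and padj = 0.0125 blocked) and CCNB1 at 14.2, 37.7 and 22.8 (-0.39, and padj = 0.0126 blocked). CDK1, at 5.25, 15.97 and 5.89 CPM, and FOXM1, at 10.8, 49.0 and 16.1, were not called. MFI8 and BI were given at different doses and share the DMSO libraries, so no comparison between them is made.

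The 42 genes stayed low in every silenced and compound group. All 42 genes were called lower than in the proliferating cells of the experiment in each of the 10 groups, where far fewer of all genes were. Those shares, for siMFN1, siMFN2, siMFN1+2 and siMAVS in turn, were 21.4%, 20.5%, 20.2% and 20.1% in IMR-90 and 31.3%, 30.4%, 30.8% and 29.1% in SK-MEL-103. They were 26.3% with MFI8 and 27.0% with BI. The one gene whose libraries overlapped those of proliferating cells was NUSAP1, in siMFN1 and siMFN1+2 IMR-90. Its call there was not made by DESeq2 (padj = 0.195 and 0.238) and was lost without proliferating library 1 (padj = 0.212 and 0.234) or library 1 of the silenced group (padj = 0.213 and 0.190), and for siMFN1+2 also without its library 2 (padj = 0.0804). For siMAVS the call was not made by DESeq2 (padj = 0.108) and was lost without proliferating library 1 (padj = 0.155). Over the 40 genes other than PRC1 and NUSAP1 the median residual levels were 11.3%, 9.86%, 8.42% and 7.10% with siMFN1, siMFN2, siMFN1+2 and siMAVS in IMR-90, 1.42%, 1.87%, 1.66% and 1.63% in SK-MEL-103, 8.45% with MFI8 and 6.86% with BI. CDKN1A was called in none of these 10 comparisons with the doxorubicin control.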

How the data were processed

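Messenger RNA was measured in 48 libraries. Per the labels' protocols, poly(A) RNA went into a stranded library kit. Per the submitters' processing notes, the authors used Trim Galore 0.6.7, STAR 2.7.10a and featureCounts on GRCh38. How strand and reads shared by several genes were treated, and from which annotation, is not given in the sources used here. The deposited values are raw counts per Ensembl gene, whole numbers with no normalization. Symbols were found for 48679 of 48898 identifiers, and 0.122% of counts have none. Gene positions and exon lengths come from GENCODE 29, where 46876 identifiers were found.

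edgeR 4.0.16 (with limma 3.58.1, in R 4.3.3) was run on the counts: filterByExpr, TMM scaling and a quasi-likelihood F test over all groups of an experiment, without a block, with Benjamini-Hochberg adjustment over all genes tested. A gene is called at an adjusted p below 0.05. SE was found by dividing the log2 fold change by the root of F. CPM is relative to the TMM-scaled library size, without a prior count. There were 23 comparisons within experiments and 5 between lines. DESeq2 1.42.0, RLE scaling, no filter, fits of the 2 groups compared, the replicate number as a block, the library-number range as a term (IMR-90 siRNA) and fits without single libraries are the alternatives. Added after seeing the data were edgeR's earlier form of the fit and sums without PRC1 and NUSAP1. The form of the fit was chosen after results of both were seen.

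The members and gene lists were chosen with earlier results of these data known. Named throughout are MKI67, CDK1, CCNB1 and FOXM1, with doxorubicin also PLK1, AURKB, BUB1B, NDC80, KIF11, TPX2, CDC20 and BIRC5, the 2 highest and 2 lowest members of each comparison, called members up to 10 between doxorubicin groups, the extremes of each role and of the residual levels, and of the pathway lists CDKN1A and the 2 highest and 2 lowest called genes, of which a selection is printed. Other names were chosen after their values were seen. Same-numbered libraries deviated together (every correlation over 0.1) in all comparisons between doxorubicin groups but siMAVS in IMR-90, and in none against proliferating cells. In siMFN2 of SK-MEL-103 only 2 pairs exist, too few to count the numbers as pairing. The pairing comes from the numbers in the titles and this check, not from a stated batch. On simulated counts for siMFN1 against siCtrl in IMR-90 (18792 genes), edgeR recovered 39 of 100 genes changed 2-fold and 82 of 100 changed 4-fold, with 14 false calls. The simulated libraries were drawn independently, without the shared deviations of same-numbered libraries, so these rates may not hold for the real counts. There are no molecular identifiers, so counts cover counting error only. Promoter windows are from RefSeq (GRCh38.p14).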

Additional observations from a re-analysis of the deposited data

Results flagged for a closer look

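The fall with doxorubicin differed between the 2 lines, by the test of the difference itself in a fit of both lines' siRNA libraries, for 29 of the 42 genes, each falling further in SK-MEL-103. Of the genes named in every comparison, MKI67 differed by -4.93 on the log2 scale, CDK1 by -3.37 and FOXM1 by -2.34. BIRC5, the survivin gene, differed by -4.39. The lines were separate experiments, which cannot be told apart from the line, and the number of genes called in this direction among all 20892 was 1914 (9.16%).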

How the results depend on the processing

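In each comparison with proliferating cells 41 or 42 of the 42 genes were called lower under every alternative, and the lost call was that of NUSAP1 in IMR-90: with DESeq2 for siCtrl, siMFN1, siMFN1+2 and siMAVS (padj 0.0968 to 0.238), in edgeR's earlier form for the last 3 (0.0534 to 0.152), without the filter for siMFN1 and siMFN1+2 (0.0666 and 0.0831), in fits of 2 groups for siMFN1+2 (0.118, with replicate block 0.275) and without the single libraries named beside its values. Fits of 2 groups did not test it for the other 4 siRNA groups. The 29 differences between lines became 25 (no filter) to 31 (DESeq2, RLE scaling, replicate block), and 22 to 30 without single libraries. Between doxorubicin groups, the replicate block in a fit of the 2 groups raised the count of called genes from 0 to 33 (siMFN1), 26 (siMFN2) and 11 (siMFN1+2) in IMR-90, 2, 12, 6 and 1 (siMFN1, siMFN2, siMFN1+2 and siMAVS) in SK-MEL-103, 11 with MFI8 and 37 with BI. It stayed at 0 for siMAVS in IMR-90, where numbers did not pair. Low counts were filtered anew in each fit of 2 groups, so genes low in SK-MEL-103 siCtrl, such as MKI67, could enter through the silenced libraries alone. For siMFN2 in SK-MEL-103 only 2 numbers could be paired (correlations 0.398 and 0.422), each best with its own number, and 2.06% of all genes were called higher. Over all groups the block gave 3 for siMFN1 and 0 elsewhere. DESeq2 and the term for library numbers gave 1 each for siMFN1. The replicate block changed no other call of the 42 genes between doxorubicin groups. Without single libraries the counts stayed at 0. The cause of these differences was not tested.

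Over all genes, counts for siMFN1, siMFN2, siMFN1+2 and siMAVS in IMR-90 were 302, 53, 300 and 121, with DESeq2 863, 340, 867 and 576, without the filter 93, 17, 147 and 47, in edgeR's earlier form 206, 16, 193 and 39, and in fits of 2 groups 3, 1, 2 and 0. In SK-MEL-103 they were 23, 12, 43 and 18, with DESeq2 47, 21, 69 and 28.

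Signs changed in 26 of 232 single-gene results, none of them called (smallest padj 0.779). CCNB1 with siMFN1 in SK-MEL-103 became -0.0016 without the filter and -0.017 with the replicate block, and NUSAP1 with BI became 0.0543 (DESeq2) and 0.0884 (earlier form). Without single libraries CCNB1 ran from -0.97 to 0.016 (BI), -0.84 to 0.10 (MFI8), -0.17 to 0.46 (siMAVS) and -0.0059 to 0.39 (siMFN1+2) in IMR-90, and -0.0245 to 0.37 (siMAVS), -0.13 to 0.12 (siMFN1) and -0.0674 to 0.22 (siMFN1+2) in SK-MEL-103. CDK1 ran from -1.01 to 0.18 (MFI8) and -0.49 to 0.81 (siMFN1, SK-MEL-103). FOXM1 ran from -1.23 to 0.55 (BI), -1.09 to 0.72 (MFI8), -0.72 to 0.23 and -0.43 to 0.61 (siMFN1 and siMFN1+2, SK-MEL-103). MKI67 ran from -0.98 to 0.16 (MFI8), -0.18 to 0.73 (siMAVS, IMR-90) and -0.92 to 2.15 (siMFN1, SK-MEL-103). KIF15 ran from -0.54 to 0.44 (MFI8) and -0.67 to 0.0487 (siMAVS, IMR-90), KIF20A from -1.14 to 0.16 (MFI8), KIF2C from -0.24 to 1.04 (siMFN1, SK-MEL-103), NEK2 from -1.12 to 0.63 (siMAVS, SK-MEL-103) and CDC25C from -0.0543 to 0.26 (siMFN2, IMR-90). NUSAP1 ran from -0.37 to 0.32 (BI), -0.22 to 0.35 (MFI8), -0.11 to 0.52 (siMFN1, IMR-90) and -0.56 to 0.0458 (between lines).

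Depth limits the genes that doxorubicin brought to a few counts in SK-MEL-103, such as NEK2, SPC25 and MKI67.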

Other observations

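Most of the listed regulators of the 42 genes fell too. The list held 17 genes, of the DREAM, MuvB and B-MYB complexes and of E2F factors beside them. Of these 17, 12 fell with doxorubicin in IMR-90 and 0 rose, and in SK-MEL-103 12 fell and 2 rose. Of all genes, 24.4% fell and 27.4% rose in IMR-90 and 30.6% fell and 29.8% rose in SK-MEL-103. The fallen ones were led by the cell cycle factors E2F2 (log2 fold change -5.05 in IMR-90 and -8.87 in SK-MEL-103), E2F8 in IMR-90 (-4.71) and MYBL2, which encodes B-MYB, in SK-MEL-103 (-6.72). E2F2 and E2F8 were listed with these complexes but are not subunits of them. The 2 that rose in SK-MEL-103 were RBL2 (0.59), which encodes the pocket protein p130 of DREAM, and LIN37 (0.80), a MuvB subunit.

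Of 155 tested genes of the pathway lists, 2, 1, 2 and 1 were called higher than in siCtrl with siMFN1, siMFN2, siMFN1+2 and siMAVS in IMR-90 (1.29%, 0.645%, 1.29% and 0.645%, against 0.592%, 0.11%, 0.64% and 0.22% of all genes). SMC1A was called in all 4. This cohesin subunit was at 52.2, 65.5 and 63.0 CPM in siCtrl libraries 1, 2 and 3, and at 101, 95.9 and 104 with siMFN1, 108, 98.8 and 109 with siMFN2, 105, 95.9 and 102 with siMFN1+2 and 94.6, 107 and 109.7 with siMAVS. Every silenced library was above every siCtrl library and below the proliferating ones (346, 277 and 299.5). By edgeR's quasi-likelihood test the log2 fold changes were 0.74, 0.81, 0.74 and 0.78 (padj = 0.00522, 0.00643, 0.00402 and 0.00398). The 4 comparisons share the siCtrl libraries, so they are not independent. The other genes of these lists called between doxorubicin groups were ZMAT3, higher with siMFN1 (0.70, padj = 0.0347) and siMFN1+2 (0.65, padj = 0.0427), and GADD45A, lower with siMAVS (-0.69, padj = 0.0394), both p53 targets. The siMAVS calls of SMC1A and GADD45A were not made in a fit of the siMAVS and siCtrl libraries alone. Such fits called only a few of all genes for siMFN1, siMFN2 and siMFN1+2 too. Whether SMC1A or ZMAT3 was among them is not given here.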
